A study of Neurospora crassa with 10 samples.

Results

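Isolated genes, as the word is used here, are genes of the fungus Neurospora crassa with at least 2500 bp to the previous and to the next gene in order of start, and with no domain of H3K9me3 in the gene or either gap. Only genes of the deposited lists count as neighbours, so a gap can hold genes for RNAs that are in no list, and in 3 cases a longer gene that began earlier reaches into it. H3K9me3 is the histone mark of constitutive heterochromatin. They were chosen by gap width and by the deposited wild-type domains, and 220 of the 9729 listed genes (2.26%) met the rule. Gap widths and freedom from domains are therefore descriptions of the choice and not results. Expression list, gene length, place on the linkage group, neighbours and gene identity were not used in choosing them.

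The series followed turnover of histone H3 by chromatin immunoprecipitation of a FLAG-tagged copy from germinated conidia. All strains carried Pvvd::hH3-3xFLAG::his-3+, in which the light-responsive vvd promoter drives the tagged histone, and were grown in the dark, treated with hydroxyurea and exposed to blue light. Its 10 libraries fall into 5 groups of 2: Δdim-2 (lacking the DNA methyltransferase), Δdim-5 (lacking the H3K9 methyltransferase), Δhda-1 (lacking a histone deacetylase), Δhpo (lacking the H3K9me3-binding protein HP1) and the wild type. Wild type, Δdim-2 and Δhda-1 are mat a, the mating type of Δdim-5 and Δhpo is not given, and values per library were not analysed here. What was used are the deposited reference features of the wild type: 346 H3K9me3 domains and 4 lists of genes by expression, the lowest 25%, 25-50%, 50-75% and highest 25%. The lists give a position for each gene and no expression value, error or replicate, so the depth behind them is unknown. No source used here gives their measurement, culture or light condition. That the 4 lists run from low to high expression was read from their names, which for the middle lists no label states.

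Filamentous fungi have compact genomes, in which most genes sit close to the next one. In Neurospora, heterochromatin forms on long AT-rich stretches of relics of transposons. A gap between genes holds promoters and terminators and can also hold genes for RNAs that are not translated.

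The isolated genes ranged widely in how much space surrounded them. Across all 9722 pairs of adjacent genes the median gap was 635 bp, and 14.7% of gaps reached 2500 bp. The smaller gap of an isolated gene had a median of 3156.5 bp (2502 to 12979 bp) and the larger gap a median of 5166.5 bp (up to 18383 bp). In 21 of the 220 genes both gaps were 5000 bp or wider. Their gaps, 395 after counting each shared gap once, spanned 1865 kb, against 522 kb for the genes themselves. The gene just inside the threshold was NCU05686 on III (highest list, 2502 bp), followed by NCU05685 on III (highest list, 2510 bp) and NCU08821 on IV (highest list, 2517 bp). Just outside it were NCU06794 on II (2492 bp), NCU00594 on I (2486 bp) and NCU01292 on V (2484 bp), all of the lowest list.

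**Figure D1:**
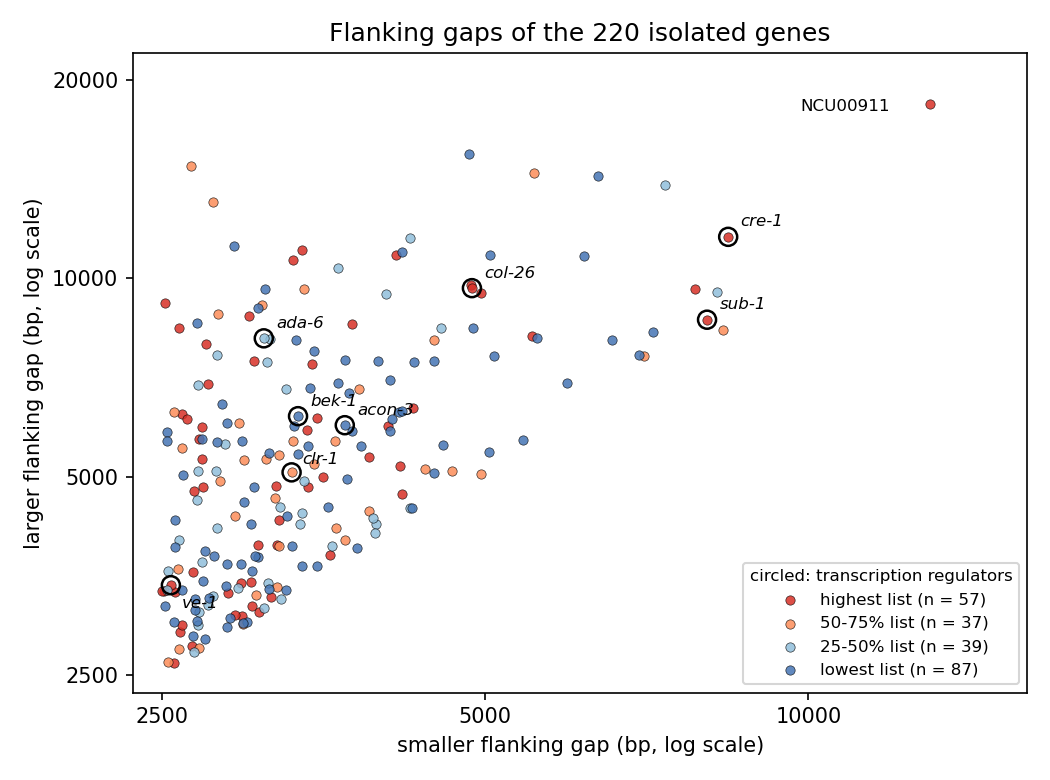
Smaller gap (x) against larger gap (y) of each isolated gene, both in bp on log axes, with 1 point per gene coloured by expression list. Transcription regulators from a list of 34 are circled and named. NCU00911, cre-1 and sub-1 lie at the wide end, and genes of all 4 lists intermix below them.

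The gene with the widest surroundings was NCU00911 on I (6778872 to 6782745), a highest-list gene of 3874 bp with 12979 bp before it and 18383 bp after it. By the smaller gap, cre-1 on IV (5176440 to 5178927), the gene of the carbon catabolite repressor, came second, with gaps of 11567 and 8421 bp. The GATA-type regulator gene sub-1 on V (3059102 to 3062061), named for its role in the female sexual structures, had 8657 and 8048 bp and came after NCU05448 (8324 bp) and NCU04665 (8222 bp). Both cre-1 and sub-1 were in the highest list. Of the 10 genes with the widest smaller gap, 4 were in the highest list (also NCU04830 on VI), 2 in the 50-75% list (NCU05448 on II and the chitinase gene chit-1 on I), 2 in the 25-50% list (NCU04665 on V and NCU06864 on VII) and 2 in the lowest list (NCU05284 and NCU07009, both on IV).

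Isolated genes were more often in the lowest expression list than genes with 2 smaller gaps, less often in the 25-50% and 50-75% lists, and not separated from them in the highest. Of the 220, 87 were in the lowest list (39.5%, Wilson 95% interval 33.3 to 46.1), 39 in the 25-50% list (17.7%, 13.2 to 23.3), 37 in the 50-75% list (16.8%, 12.5 to 22.3) and 57 in the highest list (25.9%, 20.6 to 32.1). Among the 7165 genes with both gaps under 2500 bp, the lowest list held 22.0%, the 25-50% list 27.1%, the 50-75% list 26.4% and the highest list 24.5%. Isolated genes thus exceeded them by 17.6 percentage points in the lowest list (Newcombe 95% interval 11.3 to 24.2). In the 25-50% list the difference was -9.36 points (-14.0 to -3.68) and in the 50-75% list -9.62 points (-14.1 to -4.02). In the highest list the difference was 1.42 points with an interval from -4.02 to 7.66, which includes 0. Seen from the lists, isolated genes made up 3.58% in the lowest (2.91 to 4.39), 1.60% in the 25-50%, 1.52% in the 50-75% and 2.34% in the highest list (1.81 to 3.02).

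These intervals cover counting error only and treat genes as independent. Neighbouring genes can be alike, and 84 isolated genes lay beside another one, so the intervals can be too narrow. No test was run, since the members are a chosen list of genes without replicate libraries.

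**Figure D2:**
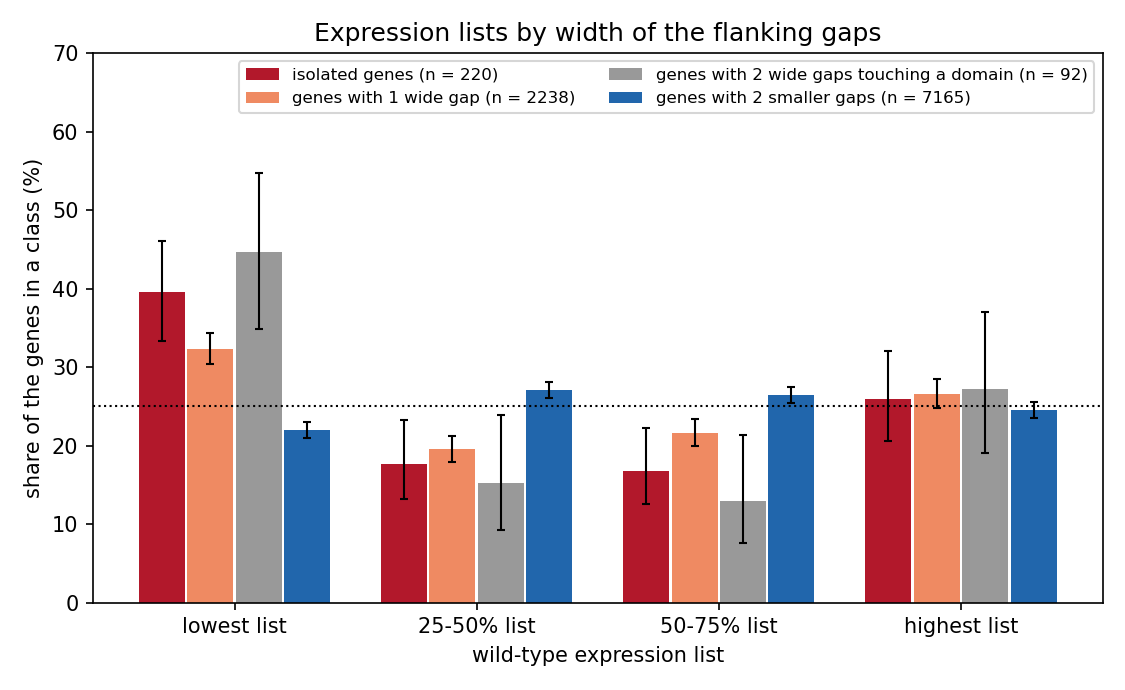
Share (%) of each class of genes in the 4 wild-type expression lists, with Wilson 95% intervals as bars; the dotted line marks 25%. Isolated genes reach 39.5% in the lowest list, against 22.0% of genes with 2 smaller gaps, and stand at 17.7% and 16.8% in the middle lists.

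Genes in wide gaps that did touch heterochromatin were not separated from isolated genes at these counts. A further 92 genes had both gaps of at least 2500 bp but touched a domain with the gene or a gap. Of these, 41 were in the lowest list (44.6%, 34.8 to 54.7) and 25 in the highest (27.2%, 19.1 to 37.0). Isolated genes minus these gave -5.02 points in the lowest list (-16.9 to 6.73) and -1.26 points in the highest (-12.5 to 8.87), so differences of that size in either direction remain possible. The 2238 genes with 1 wide gap lay between, with 32.3% in the lowest list, and isolated genes exceeded them by 7.24 points (0.708 to 14.1).

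The lowest-list share was higher at wider gaps well before 2500 bp. Among genes with no domain in the gene or its gaps, the lowest list held 11.7% where the gene overlapped or nested with a neighbour (n = 2120), 19.3% at a smaller gap of 0 to 499 bp, 37.7% at 500 to 999 bp, 45.2% at 1000 to 1499 bp, 46.1% at 1500 to 1999 bp and 46.2% at 2000 to 2499 bp (39.1 to 53.4). Within the isolated genes it was 36.3% at 2500 to 3499 bp (28.9 to 44.4, n = 146), 43.4% at 3500 to 4999 bp (n = 53) and 52.4% at 5000 bp and more (32.4 to 71.7, n = 21). The share thus levelled off from about 1000 bp, and the intervals of isolated genes overlapped those of genes with gaps of 1000 to 2499 bp. The highest-list share was 27.7% in overlapping genes (25.8 to 29.6) and 20.7% at 1000 to 1499 bp (17.8 to 23.9). Within the isolated genes it was 27.4%, 22.6% and 23.8% in the 3 classes from 2500 bp up, with intervals that overlapped those of all narrower classes.

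**Figure D3:**
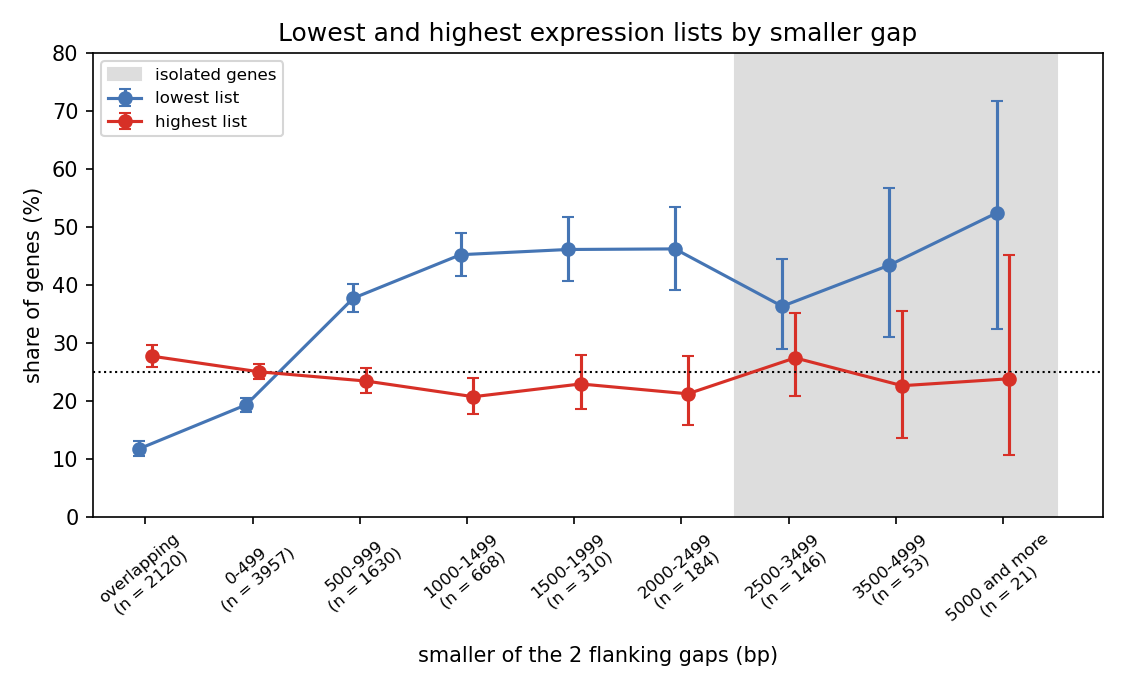
Share (%) of genes in the lowest and highest expression lists by the smaller of the 2 flanking gaps (bp), for genes with no domain in the gene or its gaps, with Wilson 95% intervals; grey marks the isolated genes. The lowest-list share climbs from 11.7% to 45.2% by 1000 to 1499 bp and then levels off, and the highest-list share is 27.7% in overlapping genes and lies between 20.7% and 27.4% at gaps of 0 bp and more.

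The order of rows inside the lists gave a finer view. Housekeeping genes stand near the top of the highest list (gpd-1 in row 2, tef-1 in row 13 and pma-1 in row 76), and the lowest list ends with 440 rows in order of locus tag, where the other lists have at most 7 in a row so ordered. The rows were therefore read as running from higher to lower expression, with the final 440 as ties, which the labels do not state. Isolated genes of the highest list had a median row of 897 of 2433 (95% interval 708 to 1122), against 1255 (1201 to 1309) for highest-list genes with 2 smaller gaps, so they stood nearer the top of the list. In the lowest list the median row was 1521 (1103 to 1646) in isolated genes, against 1180 (1121 to 1241) with 2 smaller gaps, and these intervals overlap. The 440 tied rows held 19 of the 87 isolated lowest-list genes (21.8%), against 268 of 1575 with 2 smaller gaps (17.0%), a difference of 4.82 points (-2.81 to 14.8). When the whole ranking was divided into 20 parts, the top part held 2.46% isolated genes (1.42 to 4.26), near the 2.26% of all genes. The highest shares were 4.53% in each of the last 2 parts (3.01 to 6.76) and 4.32% in part 2 (2.84 to 6.52). The lowest were 0.411% in part 5 (0.113 to 1.48) and 0.206% in part 11 (0.0363 to 1.16). These parts were picked out of the 20 after their values were seen.

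The isolated genes were a mixture of very short and long genes. Their median length was 2001 bp (95% interval 1598 to 2359), against 2100 bp (2072 to 2135) for genes with 2 smaller gaps, so the medians did not separate. The interquartile range was wider in isolated genes, from 1087.25 to 3246.5 bp, against 1483 to 2942 bp in the others. No interval was computed for it or for the shares by length class that follow. When all genes were divided by length into 5 classes of like size, the shortest class, 210 to 1307 bp, held 35.0% of isolated genes, against 18.6% of genes with 2 smaller gaps. The longest class, from 3313 bp up, held 24.5% of isolated genes, against 18.3% of genes with 2 smaller gaps.

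The lists stood further apart in length among isolated genes. In the lowest list the median was 960 bp (789 to 1133), against 1275 bp (1230 to 1320) with 2 smaller gaps. In the highest list it was 3214 bp (2853 to 3604), against 2567 bp (2502 to 2642), and in neither list did the intervals overlap. The 50-75% list gave 3150 bp (2410 to 3847) against 2461 bp (2398 to 2528), where they did, and the 25-50% list 2207 bp (1434 to 2680) against 2045 bp (1990 to 2094), where they also did. Between the highest and the lowest list the medians differed by 2254 bp in isolated genes, against 1292 bp with 2 smaller gaps. Genes with 1 wide gap had medians of 1151 bp in the lowest and 3116 bp in the highest list. Both lay between isolated genes and those with 2 smaller gaps. Genes with 2 wide gaps touching a domain had 1028 and 2679 bp. Among genes with no domain, the highest-list median was already 3153 bp at a smaller gap of 500 to 999 bp. At 2000 to 2499 bp it was 3112 bp, so the greater length was not particular to isolated genes. In the lowest list the medians were 1075 to 1329 bp at smaller gaps under 2500 bp and 904 to 960 bp from there up. Whether the ranking was corrected for gene length is not given, and the share of these differences that this could make was not tested.

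**Figure D4:**
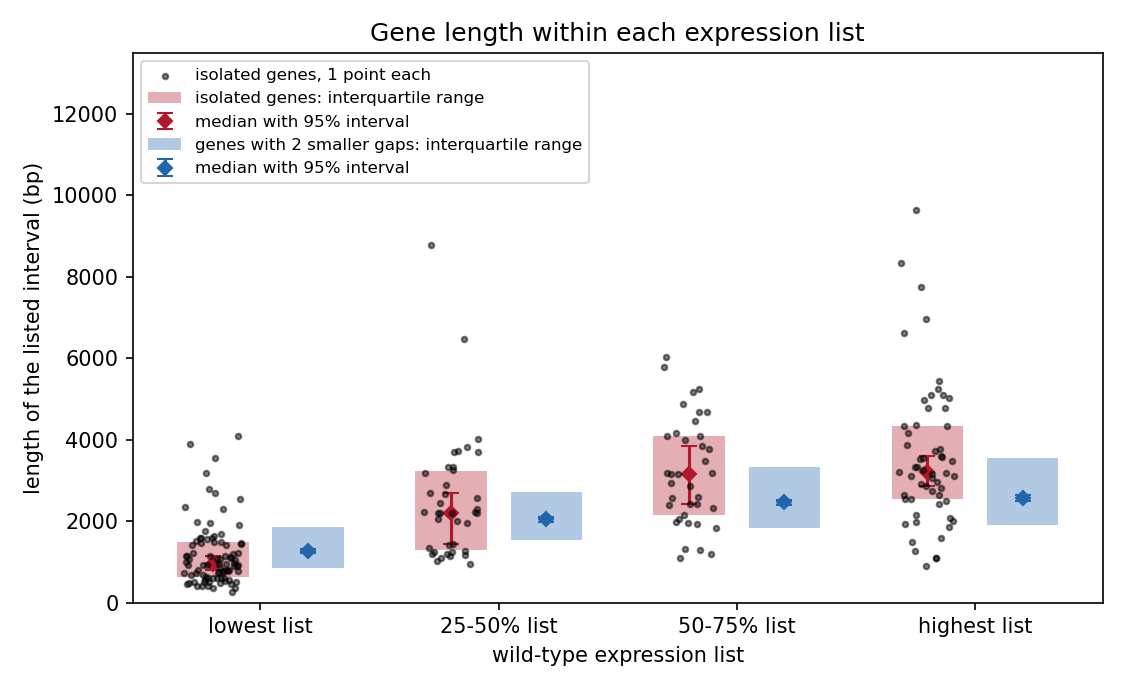
Length of the listed interval (bp) in the 4 expression lists, for isolated genes (left) and genes with 2 smaller gaps (right): shaded interquartile range, median with its 95% order-statistic interval and, for isolated genes, 1 point per gene. Isolated genes are shorter in the lowest list (medians 960 against 1275 bp) and longer in the highest (3214 against 2567 bp).

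Among short genes the lowest list was more frequent in isolated genes also at like length. In the shortest class, 60 of 77 isolated genes were in the lowest list (77.9%, 67.5 to 85.7), against 61.2% with 2 smaller gaps (58.5 to 63.7). In the next class, 1308 to 1861 bp, it was 15 of 23 (65.2%, 44.9 to 81.2), against 23.2% (21.2 to 25.4). In the 3 longer classes the lowest-list shares were 17.9%, 10.5% and 5.56%, against 16.2%, 7.48% and 3.35%, and their intervals overlapped. The highest-list share of isolated genes was below that of genes with 2 smaller gaps in the 3 shorter classes, with 5.19% against 7.86%, 3 of 23 genes against 19.8%, and 17.9% against 24.8%. It was above it in the 2 longer classes, with 47.4% (32.5 to 62.7) against 29.9% (27.6 to 32.3) at 2425 to 3312 bp and 50.0% against 40.6% from 3313 bp up. Only at 2425 to 3312 bp did these intervals not overlap. Averaged over the 5 classes of length with the weights of the isolated genes, isolated genes exceeded genes with 2 smaller gaps by 11.5 points in the lowest list and by 2.80 points in the highest.

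The extremes of length show the mixture. The longest isolated gene was NCU04531 on VII (1545158 to 1554800, 9643 bp, highest list). It was followed by the polyketide synthase gene pks-3 on IV (8785 bp, 25-50% list) and 3 kinase genes of the highest list: nik-2 on II (8331 bp) and dcc-1 on I (6968 bp), which encode histidine kinases, and stk-12 on I (7752 bp), which encodes a serine/threonine kinase. The 5 shortest were all in the lowest list: NCU00099 on III (2612528 to 2612788, 261 bp), NCU06849 on II (351 bp), NCU00718 on I (362 bp), NCU08321 on IV (401 bp) and NCU04925 on IV (405 bp). Gaps of 6178 and 10820 bp flanked the 261 bp of NCU00099.

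Among lowest-list genes, the largest summed gaps belonged to NCU08777 on III (595 bp long, gaps of 14332 and 6376 bp), NCU01837 on II (495 bp, 4833 and 15472 bp), NCU00099, NCU04719 on VI (725 bp, 10841 and 5049 bp) and NCU05284 on IV (510 bp, 7169 and 8298 bp). All 5 were shorter than the lowest-list median of 960 bp. In the highest list the 5 largest were NCU00911, cre-1, NCU04830 (4787 bp), sub-1 and NCU04718 on VI (4164 bp, 4133 and 10841 bp). NCU04718 and NCU04719 are neighbours and share the gap of 10841 bp, so a highest-list and a lowest-list gene face each other across it.

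A share of well-studied transcription regulator genes above that of all genes was isolated. Of 38 regulators named, a list chosen with earlier results of these data known, 34 were found, and 8 of them were isolated (23.5%, Wilson interval 12.4 to 40.0), against 2.26% of all genes and 2.95% of the 1118 genes with a symbol of their own. Another 15 had 1 wide gap, 1 (rca-1) had 2 wide gaps but touched a domain, and 10 had 2 smaller gaps. In all, 24 of the 34 (70.6%) had at least 1 gap of 2500 bp or more, against 26.2% of all genes with a neighbour on both sides. The median of their summed gaps was 5339.5 bp, against 1647 bp over all genes. The list is no sample of all transcription factors.

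The 8 isolated regulators spanned the expression lists. The highest list held cre-1, sub-1, col-26 and ve-1. Of these, col-26 on V (287232 to 291574) regulates carbon metabolism and had gaps of 4861 and 9667 bp, and ve-1 on II (2607929 to 2611456), the velvet gene of development, had 3421 and 2549 bp. The 50-75% list held clr-1 on IV (2149157 to 2154036), a regulator of cellulose degradation, with 3302 and 5076 bp. In the 25-50% list was ada-6 on IV (536988 to 539552), a zinc-cluster regulator of asexual development, with 3111 and 8111 bp. The lowest list held acon-3 on IV (271905 to 274263), which acts in conidial development, with 5986 and 3701 bp, and bek-1 on III (2605290 to 2606349), a homeodomain gene of fruiting body development, with 3348 and 6178 bp. These were the only regulators of the list in the lowest list, so 2 of 2 there were isolated, against 4 of 22 in the highest list.

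The other gene lists held 0 or 1 isolated gene each. Of 19 signalling genes 1 was isolated (5.26%, 0.935 to 24.6), gna-1 of the highest list on III (1614044 to 1617257), the gene of a G protein alpha subunit, with gaps of 2608 and 6229 bp. Of 11 conidiation genes 1 was isolated (9.09%, 1.62 to 37.7), the same acon-3 as above. None was isolated of 19 light and clock genes, which allows a share of up to 15.8%, of 10 heterochromatin genes (up to 30.0%), of 8 histone genes (up to 37.5%), of 10 cell wall and secretion genes (up to 30.0%) or of 8 housekeeping genes (up to 37.5%). These limits are 3 counts of each total and lie far above the background of 2.26%, so lists of this size cannot show a lack of isolated genes, and the intervals of the signalling and conidiation genes do not separate from it. Of the light and clock genes 10 had 1 wide gap, among them frq (7375 and 868 bp), vvd, whose promoter drives the tagged histone (3457 and 837 bp), and the photoreceptor gene wc-1 (3728 and 454 bp).

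A symbol of its own was carried by 33 of the 220 isolated genes, by the name table of the NC12 assembly (15.0%, 10.9 to 20.3), against 11.2% with 2 smaller gaps (10.5 to 12.0). In the highest list it was 19 of 57 (33.3%, 22.5 to 46.3), against 21.9% (20.0 to 23.9). These shares do not separate by their intervals. Besides the genes already named, the highest list held the kinase genes ptk-2 and stk-22, ham-9 of hyphal fusion, ff-7 of female fertility, nst-4 of the sirtuin family and the cell wall genes gel-3 and acw-5. It also held genes of central metabolism: acu-9 (malate synthase), gln-1 (glutamine synthetase), tre-2 (trehalase) and aln-1 (allantoinase). Of these, gel-3 stood in row 10 and acw-5 in row 53 of the highest list, the nearest to its top among isolated genes with a symbol. The 50-75% list held vad-2 of asexual development, ham-6 of hyphal fusion and smco-7, and the 25-50% list the cellodextrin transporter gene cdt-2, the amino acid permease gene aap-2 and gh18-3 of a glycoside hydrolase family. In the lowest list were gh10-1, a xylanase gene, and mld-1. All members with a symbol are named here, a choice made after their values were seen.

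Locus tags of NCU10000 and above, which mark a part of the gene models, were no more frequent in isolated genes. They made up 18 of 220 (8.18%, 5.24 to 12.6), against 9.97% with 2 smaller gaps (9.29 to 10.7). In the lowest list it was 11 of 87 (12.6%, 7.21 to 21.2), against 18.3% (16.5 to 20.3).

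Isolated genes occurred on all 7 linkage groups. They made up 2.56% of the genes on I (60 of 2346), 2.14% on II (22 of 1028), 1.67% on III (21 of 1255), 2.29% on IV (34 of 1485), 2.47% on V (39 of 1580), 2.63% on VI (26 of 988) and 1.72% on VII (18 of 1047), and the Wilson intervals of all 7 overlapped. The lowest-list share of isolated genes ranged from 28.6% on III to 50.0% on VII, and on each linkage group it was above that of genes with 2 smaller gaps, which ranged from 17.9% on I to 28.4% on VII. The highest-list share went both ways, with 38.1% against 24.6% on III and 16.7% against 21.4% on VII.

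The end of a linkage group was taken as its outermost listed gene or domain, so the true end can lie further out. Pooled over the lists, isolated genes had a median distance of 1296 kb to the ends of linkage groups (1048 to 1483). For genes with 2 smaller gaps it was 1522 kb (1496 to 1558). The lists did not all go this way. In the lowest list isolated genes lay further from the ends, at 1280 kb (763 to 1561) against 977 kb (921 to 1075). In the other lists they lay nearer. Only in the 50-75% list, at 1032 kb (653 to 1635) against 1687 kb (1639 to 1746), did the intervals not overlap. Close to the ends the shares did not separate. Within 200 kb of an end lay 9 of the 220 (4.09%, 2.17 to 7.59), against 529 of 7165 genes with 2 smaller gaps (7.38%, 6.80 to 8.01), a difference of -3.29 points (-5.32 to 0.256) whose interval includes 0. Of these 9, 6 were in the lowest and 3 in the 50-75% list. None of the 57 isolated highest-list genes lay there, which allows a share of up to 5.26%, against 4.96% of highest-list genes with 2 smaller gaps. Over the 136 isolated genes with no isolated gene beside them, the difference within 200 kb was -0.765 points (-3.93 to 4.75). Of the 18 alternatives, 1 gave an interval without 0, that without linkage group VI (-4.15 points, -5.95 to -0.611). The rule on domains was not applied to the genes with 2 smaller gaps, so the comparison is not free of the choice. Without that rule the share was 5.13% and the difference -2.25 points (-4.30 to 0.839).

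The distances to heterochromatin had overlapping intervals. They run from the edge of the gene, so for isolated genes they include a domain-free gap of at least 2500 bp. The rule thus set a lower bound on them, and the comparison with other genes is a description of the choice. The nearest domain lay at a median of 46.4 kb from isolated genes (36.3 to 55.7), against 42.4 kb (40.8 to 44.0) for genes with 2 smaller gaps outside domains. The range in isolated genes was 3.79 kb, for NCU10052 of the 50-75% list on VII, to 308 kb, for NCU04418 of the 25-50% list on IV. Both were singled out after their values were seen. In the lowest list the medians were 47.8 kb (31.1 to 65.0) against 36.4 kb (33.7 to 38.9), and in the highest list 44.0 kb (33.1 to 57.3) against 48.9 kb (45.1 to 52.6). Lowest-list isolated genes were thus not nearer to domains than highest-list ones within these intervals, whereas among genes with 2 smaller gaps they were, and the difference between the classes was not tested.

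The neighbours of isolated genes were often in the lowest list, also beside isolated genes of the other lists. Of 440 neighbours, 179 were in the lowest list (40.7%, 36.2 to 45.3), against 22.7% of the neighbours of genes with 2 smaller gaps (22.1 to 23.4). Neighbours were counted from each gene, so a gene between 2 isolated genes counts for both, and adjacent isolated genes count each other. The intervals for neighbours treat these counts as independent and can be too narrow. By list of the isolated gene, neighbours in the lowest list made up 42.5% for the lowest list, 39.7% for the 25-50% list, 35.1% for the 50-75% list and 42.1% for the highest list (33.4 to 51.3). With 2 smaller gaps the same shares were 43.5%, 18.8%, 15.7% and 16.0% (14.8 to 17.3). A lowest-list neighbour was therefore common beside lowest-list genes in both classes, and beside the other lists common for isolated genes.

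The contrast was greatest for highest-list genes. Neighbours in the lowest list were 26.1 points more frequent beside isolated highest-list genes than beside highest-list genes with 2 smaller gaps (17.3 to 35.3). Neighbours of isolated genes have at least 1 wide gap themselves, so the neighbour across the gap of genes with 1 wide gap is the closer comparison. There, 24.1% of the neighbours of highest-list genes were in the lowest list (20.5 to 28.2), and isolated genes exceeded this by 18.0 points (8.39 to 27.8). Leaving out neighbours that were isolated themselves, the share beside isolated highest-list genes was 38.3% of 94, and the difference 14.2 points (4.10 to 24.9). They were left out beside isolated genes only, while the 24.1% kept them, so the 2 sides are not alike. Single highest-list loci differed: NCU00911 stood between a 25-50% and a lowest-list gene, whereas both neighbours of cre-1 were in the highest list. Among lowest-list genes, bek-1 had lowest-list genes on both sides, one of them the isolated NCU00099 across 6178 bp. For isolated genes of the lowest, 25-50% and 50-75% lists the differences from genes with 1 wide gap were 0.104, 7.11 and 3.84 points. All neighbours were kept there, and the intervals include 0.

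**Figure D5:**
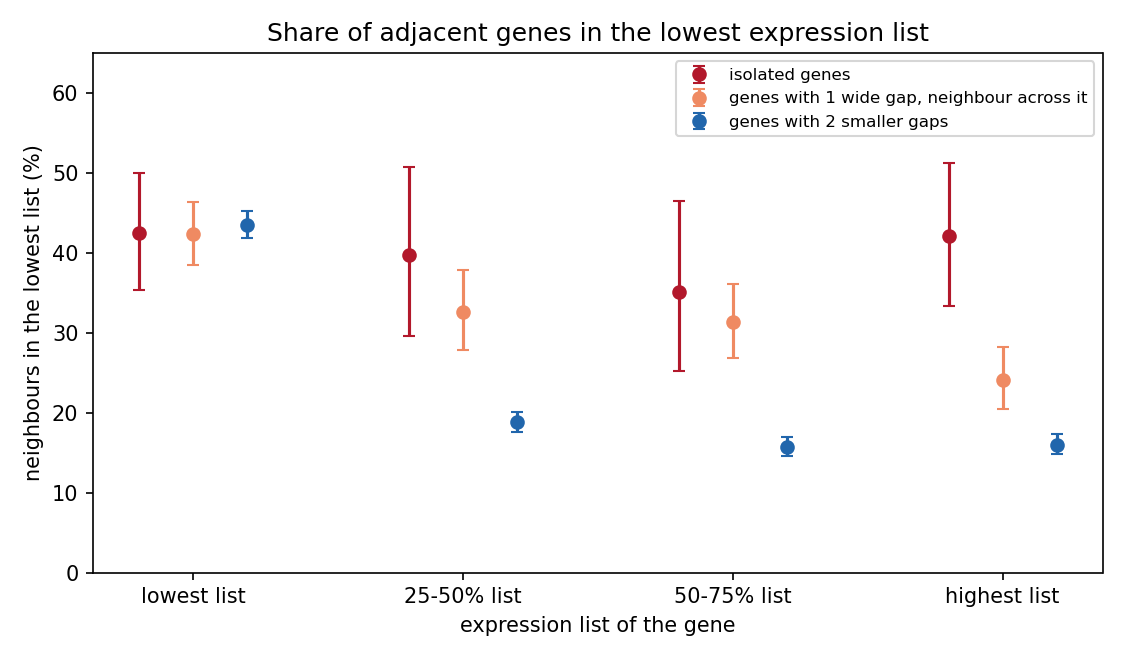
Share (%) of adjacent genes in the lowest expression list, by the list of the gene itself, with Wilson 95% intervals: isolated genes (both neighbours), genes with 1 wide gap (the neighbour across it, no domain) and genes with 2 smaller gaps (both neighbours). Beside highest-list genes the share is 42.1% for isolated genes, 24.1% with 1 wide gap and 16.0% with 2 smaller gaps.

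Taken over all lists, the share of neighbours in the gene's own list did not separate isolated genes from others by these intervals. Of the 440 neighbours, 131 were in the list of the isolated gene (29.8%, 25.7 to 34.2), against 33.2% of the 8291 adjacent pairs less than 2500 bp apart (32.2 to 34.2). Over the 1144 wide gaps with no domain it was 30.8% (28.2 to 33.5). In the highest list alone it was 23.7% for isolated genes (16.8 to 32.3), against 31.6% with 2 smaller gaps (30.1 to 33.2). The 50-75% list gave 16.2% (9.53 to 26.2) against 29.9% (28.4 to 31.4), and only there did the intervals not overlap. In the lowest list it was 42.5% against 43.5%, and in the 25-50% list 23.1% against 29.3%. The pooled shares also depend on the mix of lists in each class, which was not corrected for.

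Some isolated genes followed one another. There were 34 pairs, 4 runs of 3 and 1 run of 4, which gave 45 adjacent pairs of isolated genes, and 13 of these pairs were in the same list (28.9%, 17.7 to 43.4). The run of 4 lies on IV and consists of pks-3 (525092 to 533876) and ada-6 of the 25-50% list and NCU04867 and NCU04869 of the lowest list. Both genes at its left end code for known products, a polyketide synthase and a transcription regulator, 3111 bp apart. The runs of 3 were NCU01943, NCU01942 (both lowest list) and ptk-2 (highest list) on I, NCU03044, NCU10772 (both lowest) and NCU03043 (highest) on I, NCU04925, NCU16744 and NCU04926 (all lowest) on IV, and NCU05508, NCU05507 (both 25-50%) and NCU05506 (lowest) on VI.

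The stretches made of an isolated gene and its gaps were not all empty of other annotation. For 216 isolated genes outside an inverted segment of VI, the name table was searched for genes that are in none of the 4 lists. Of these 216, 66 (30.6%) had at least 1 such gene in the stretch. The search covered the isolated gene itself as well as both gaps, so an RNA gene that overlaps it counts too. The unlisted genes were ncRNA genes for 39, tRNA genes for 32 and rRNA genes for 6 isolated genes, and never protein-coding genes. Among genes with 2 smaller gaps, which leave less room, it was 7.78%. Isolated genes of the lowest list had them in 22.1% of cases, those of the 25-50%, 50-75% and highest lists in 36.8%, 36.1% and 35.7%. The stretch of cre-1 and its gaps held 4 of them (2 tRNA, 1 ncRNA and 1 rRNA gene), and that of sub-1 held 1 ncRNA gene. Those of NCU00911, col-26, clr-1, acon-3, bek-1 and ve-1 held none. For 3 isolated genes, NCU07910, NCU01027 and NCU09407, a longer gene that began earlier reached into the previous gap and ended 348, 1692 and 1758 bp before them, since the rule takes the gap from the previous gene in order of start.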

How the data were processed

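The files used are the authors' deposited intervals: genes in 4 expression lists and the SICER domains of H3K9me3, both from wild type. Bowtie2, HOMER, SICER and deepTools are named in the submitters' processing notes, with no version, setting or build in the sources used here. Only positions were used, since the score is 0 and the strand + in all 9729 rows. Strand being absent, the promoter side of a gap is unknown.

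The lists were pooled and sorted by supercontig and start. A gap is the distance to the previous or next gene in that order, and the 14 outermost genes were left out. Domains include their last position, and 10 empty rows were skipped. Coordinates count from 1, in the files' build. Of the intervals, 9490 were named by an identical position in the NC12 gene table, 238 by a mirrored position on VI (1851685 to 2769626, 4 isolated genes) and 1 stayed unnamed.

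Shares have Wilson intervals, differences of shares Newcombe intervals and medians order-statistic intervals, all at 95% (Python 3.11.15, SciPy 1.17.1), and the functions were checked on simulated intervals. Members and lists were chosen with earlier results of these data known. Named genes are the 10 with the widest smaller gap, the 5 longest and shortest, those just inside and outside 2500 bp, the 5 largest summed gaps in the lowest and highest lists, runs of 3 or more, and members of 8 gene lists. Alternatives changed the gap, domains, genes compared, linkage groups, gene models and length.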

Additional observations from a re-analysis of the deposited data

How the results depend on the processing

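The number of isolated genes followed the gap required, with 404 at 2000 bp, 134 at 3000 bp and 21 at 5000 bp, and was 136 with only those that have no isolated gene beside them. The excess in the lowest list (17.6 points) stayed above 0 in all 18 alternatives, between 11.5 within classes of gene length, which has no interval, and 28.2 at 5000 bp. The intervals of the other 17 left out 0. No alternative compared isolated genes only with domain-free genes at smaller gaps of 1000 to 2499 bp. Their lowest-list shares were 45.2%, 46.1% and 46.2% by class, against 39.5% of isolated genes, so the excess is over more closely packed genes. The highest-list difference (1.42 points) ran from -0.983 to 2.80 and all 17 of its intervals included 0. Without the requirement on domains, the difference in distance to a domain was -13 kb, since that alternative readmits genes whose gaps hold one. Leaving out isolated genes with an unlisted gene in their body or gaps, or with an isolated neighbour, left both list differences within their main intervals. Both of these cuts were chosen after seeing the data. In the lowest list isolated genes were shorter in all 16 alternatives (-432 to -228 bp, 14 intervals without 0), and in the highest list longer (517 to 1211 bp, 13 intervals without 0). These length intervals carry only the error of the isolated genes' median, with the median of the compared genes taken as fixed. Expression values, strand and libraries were not analysed here, so precision is limited by the number of genes.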
